A study of Mus musculus with 6 samples.

Results

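Mitochondria take up calcium through pores of the voltage-dependent anion channels (VDAC) in their outer membrane and through the calcium uniporter in their inner membrane, and 9 genes of these parts were examined in hearts that overexpress COUP-TFII. The genes were taken by name, *Mcu*, *Mcub*, *Micu2*, *Micu3*, *Smdt1*, *Letm1*, *Vdac1*, *Vdac2* and *Vdac3*. No cut on a measured value was used, but the choice was made with earlier results of these data known. Probe sets that name exactly 1 of these symbols were found for 8 of them, 17 probe sets in all, among 18193 genes and 34945 probe sets with 1 gene on the array. *Mcub* was not analysed here.

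Whole ventricles of 3 CTRL and 3 OE mice were hybridized to 6 Affymetrix mouse genome arrays. All mice, of a mixed 129SvEv/C57Bl6/J background, carried Myh6-MCM (Myh6-MerCreMer), a Cre recombinase that is active in cardiomyocytes once tamoxifen is given, and all received tamoxifen at 40 mg per kg and day for 3 days from an age of 2 months. OE mice carried the CAG-S-COUP-TFII allele in addition, from which Cre switches on COUP-TFII, with the ventricles harvested 16 days from the start of tamoxifen, at 2.5 months by the labels. The transgene was thus meant for cardiomyocytes, while the RNA came from all cells of the ventricle, where fewer cells of a type and less RNA per cell cannot be told apart. The deposited values are log2 differences of each probe set from its median over the 6 arrays. They hold no level of expression, so genes cannot be ranked by abundance and the presence of tissue markers cannot be read from them.

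The uniporter is a channel built of pore subunits encoded by *Mcu*, which *Mcub* can replace with a poorly conducting relative. EMRE, the product of *Smdt1*, holds the pore together with the calcium-sensing gatekeepers of the MICU family, and *Letm1* encodes a cation exchanger of the same membrane. The VDAC proteins pass metabolites and ions, among them ATP, ADP and calcium, through the outer membrane. In the heart this route lets calcium of each beat reach the matrix, where it stimulates enzymes of fuel oxidation.

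The 250 bases before the annotated starts of *Micu2*, *Mcu* and *Vdac1* (RefSeq, GRCm38.p6) are shown because *Micu2* was the only gene of the group that passed the test, and *Mcu* and *Vdac1* had the most negative differences. Capitals mark AGGTCA or its reverse complement TGACCT, the half-site that receptors of the COUP-TFII family can bind. The *Micu2* window is chr14:57999263-57999512 on the minus strand, that of *Mcu* is chr10:59616693-59616942 on the minus strand, and those of the *Vdac1* starts are chr11:52360601-52360850 and chr11:52361347-52361596 on the plus strand.
Micu2: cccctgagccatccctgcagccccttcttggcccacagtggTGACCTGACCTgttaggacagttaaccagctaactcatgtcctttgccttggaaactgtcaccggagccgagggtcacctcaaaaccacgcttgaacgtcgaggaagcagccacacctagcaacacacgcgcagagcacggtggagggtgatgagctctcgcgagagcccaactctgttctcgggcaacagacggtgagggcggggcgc
Mcu: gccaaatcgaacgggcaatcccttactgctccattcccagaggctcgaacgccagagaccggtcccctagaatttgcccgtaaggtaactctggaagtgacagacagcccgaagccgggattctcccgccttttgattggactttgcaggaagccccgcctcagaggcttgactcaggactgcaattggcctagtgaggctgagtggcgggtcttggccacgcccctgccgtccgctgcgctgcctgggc
Vdac1, start 1: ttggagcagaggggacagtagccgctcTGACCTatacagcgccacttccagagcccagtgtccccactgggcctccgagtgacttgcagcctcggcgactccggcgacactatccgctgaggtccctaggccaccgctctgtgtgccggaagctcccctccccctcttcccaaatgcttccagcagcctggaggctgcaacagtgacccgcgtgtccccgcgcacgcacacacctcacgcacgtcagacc
Vdac1, start 2: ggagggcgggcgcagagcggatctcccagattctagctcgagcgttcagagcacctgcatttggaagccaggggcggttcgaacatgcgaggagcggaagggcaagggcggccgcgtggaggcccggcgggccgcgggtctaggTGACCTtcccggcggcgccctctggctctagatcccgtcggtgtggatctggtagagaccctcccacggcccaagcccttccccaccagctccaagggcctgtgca
The *Micu2* window held 2 matches that overlap by 1 base, and each *Vdac1* window held 1. The windows of *Letm1*, *Mcu* and *Smdt1* held none, and windows of *Micu3*, *Vdac2* and *Vdac3* were not used here. Of 32851 such windows of all RefSeq genes, 14.0% held AGGTCA on either strand and 1.36% held it more than once. The repeat AGGTCANAGGTCA, in which AGGTCA can match by itself, was in 0.0335% of all windows and in none of the 6 windows of the group. These are matches of letters, and binding was not measured on the arrays.

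On the scale of the deposited values, the mRNAs of the uniporter and VDAC genes differed between OE and CTRL ventricles about as much as those of all genes. Their differences were small and not in 1 direction. Of 8 measured genes, *Micu2* was called higher and none was called lower by limma with p adjusted over all genes, where 26.7% of all genes were called, 14.9% higher and 11.8% lower. At an unadjusted p under 0.05, *Micu2* and *Smdt1* were higher and *Mcu* and *Vdac1* lower, where 40.3% of all genes passed, 20.4% higher and 19.9% lower. No gene of the group was called with a change past 1.2-fold, against 24.5% of all genes. The differences in the group ran from −0.24 for *Mcu* to 0.23 for *Micu2* on the log2 scale. Their median was −0.06, against −0.03 over all genes, and the median of their absolute sizes was 0.18, against 0.17 over all genes. No 95% interval of a gene of the group reached past a 1.35-fold change on the scale of the deposited values. In size of difference *Mcu* stood at rank 6402 of 18193 genes and *Micu3* at rank 16599.

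**Figure D1:**
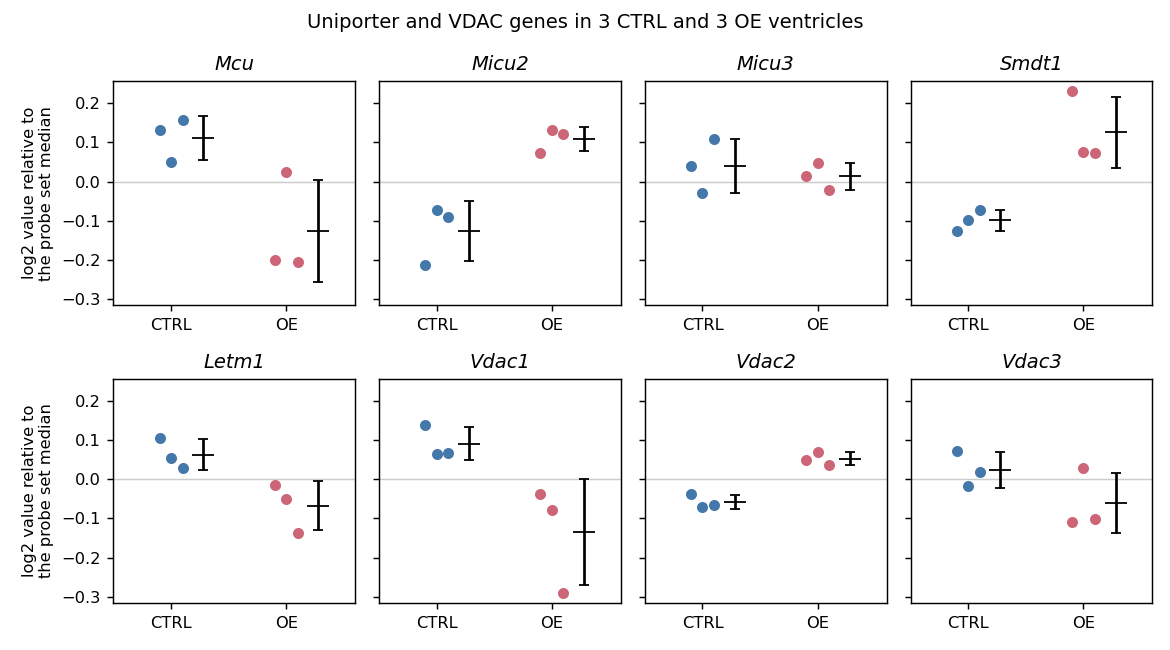
Log2 values of the 8 measured genes, relative to the median of each probe set and averaged over the probe sets of a gene, in each of 3 CTRL arrays (blue) and 3 OE arrays (red). The horizontal bar and whiskers beside the points are the mean and SD of a group, and the groups overlap for *Micu3* and *Vdac3* only.

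The scale of the arrays set how these differences read. Of 79 ribosomal protein genes, 44 were measured, and 16 of these were called higher and 1 lower in OE, with a median log2 difference of 0.20. With every array centred on these genes, called ribosomal centring from here, all genes had a median of −0.25 in place of −0.03. The group then had 0 genes called higher, also none at an unadjusted p under 0.05, and 5 lower (*Mcu*, *Micu3*, *Letm1*, *Vdac1* and *Vdac3*), where 57.7% of all genes were called, 7.21% higher and 50.5% lower. On that scale *Micu2* was at a log2 difference of 0.02 and *Smdt1* at 0.01, and *Vdac2* turned from 0.11 to −0.11. Directions given below are relative to the quantile-normalized scale of the deposited values.

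*Mcu*, which encodes the pore subunit, had the lowest difference of the group. Its log2 values were 0.13, 0.049 and 0.16 in CTRL 1, 2 and 3 and −0.20, 0.024 and −0.21 in OE 1, 2 and 3. All 3 OE arrays were below the 3 CTRL arrays, with OE 2 close to CTRL 2 and the other two OE arrays clearly apart. The difference was −0.24 (SE 0.08, 95% interval −0.43 to −0.044), or 1.18-fold lower, and missed the threshold (adjusted p = 0.0712 from limma, adjusted p = 0.132 from one-way analysis of variance). Of the 2 probe sets of *Mcu* 1 was called, and the difference between them was not tested. The first, 1453166_at, averaged 0.16 ± 0.04 over the CTRL arrays and −0.17 ± 0.10 over the OE arrays (SD, n = 3 each), a 1.26-fold lower value that was called (log2 −0.33, SE 0.09) with adjusted p = 0.0267 when limma was fitted to probe sets. In limma without CTRL 1, CTRL 2, OE 1 or OE 3 that probe set was not called (adjusted p from 0.0576 to 0.0759), nor did one-way analysis of variance call it (adjusted p = 0.054). The second, 1442031_at, had groups that overlapped and a log2 difference of −0.15 (SE 0.13, adjusted p = 0.444 from limma). *Mcu* was called lower where its probe set of largest variance stood for the gene. That setting called 31.6% of all genes, 18.4% higher and 13.2% lower. For *Mcu* the probe set chosen was again 1453166_at (log2 −0.33), so this call is not a separate reading. Variance over all arrays includes the difference between the groups, so the choice favours probe sets that differ. Without OE 2 the average of both probe sets was called lower too (log2 −0.31, adjusted p = 0.033 from limma), and 19.8% of all genes were called, 11.7% higher and 8.07% lower.

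*Smdt1*, which encodes the EMRE subunit, lay on the other side. Its values were −0.13, −0.098 and −0.072 in CTRL 1 to 3 and 0.23, 0.076 and 0.072 in OE 1 to 3. The 3 OE arrays were above the 3 CTRL arrays, and OE 1 stood highest. The difference of 0.22 (SE 0.07, 95% interval 0.06 to 0.39), or 1.17-fold, missed the threshold narrowly (adjusted p = 0.0519 from limma) and was 0.01 after ribosomal centring. *Smdt1* was called higher with array weights and with each array centred on its own median. Those settings called 2784 and 2868 of 18193 genes higher, against 2709 in the fit without them.

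Of the gatekeepers, *Micu2* was called higher on the deposited scale, though not after ribosomal centring, and *Micu3* was not called. *Micu2* encodes a calcium-binding subunit that helps to keep the channel closed at low calcium. Its values were −0.21, −0.073 and −0.091 in CTRL and 0.073, 0.13 and 0.12 in OE, so that every OE array was above every CTRL array and CTRL 1 was lowest. It rose 1.18-fold (log2 0.23, SE 0.07, 95% interval 0.07 to 0.39, adjusted p = 0.0401 from limma). This call did not hold on leaving out any 1 array (adjusted p from 0.0606 to 0.116), after ribosomal centring (log2 0.02, adjusted p = 0.859), in one-way analysis of variance (adjusted p = 0.0528) or in the fit over probe sets, where its only probe set had adjusted p = 0.0676. *Micu3* encodes a family member that is best known from nerve and muscle. Its values were 0.04, −0.028 and 0.11 in CTRL and 0.015, 0.048 and −0.021 in OE, and the groups overlapped. Its difference was −0.026 (SE 0.07, 95% interval −0.18 to 0.13, adjusted p = 0.8 from limma), and its 2 probe sets were at −0.013 and −0.039. The sign turned without CTRL 3 (log2 0.0079), and after ribosomal centring *Micu3* was called lower (log2 −0.24, adjusted p = 0.025).

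*Letm1*, the cation exchanger gene, had values of 0.11, 0.054 and 0.029 in CTRL and −0.015, −0.051 and −0.14 in OE. The OE arrays were all below the CTRL arrays, by a small margin between CTRL 3 and OE 1. The difference of −0.13 (SE 0.07, 95% interval −0.29 to 0.025) did not pass the test (adjusted p = 0.185 from limma). Its 4 probe sets ran from −0.20 to −0.09, and in each of them the groups overlapped. Of these, 3 were annotated to the same source sequence and so are not independent readings.

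Among the channels of the outer membrane, *Vdac1* and *Vdac2* had differences of opposite sign, except after ribosomal centring, where both were negative. *Vdac1*, commonly described as the most abundant form in heart, had values of 0.14, 0.065 and 0.067 in CTRL and −0.037, −0.08 and −0.29 in OE. All OE arrays were below all CTRL arrays, and OE 3 was by far the lowest. The difference was −0.23 (SE 0.08, 95% interval −0.42 to −0.032), 1.17-fold lower, with adjusted p = 0.0827 from limma, above the threshold, and it was −0.15 without OE 3. The 5 probe sets of *Vdac1* agreed in sign, from −0.27 to −0.17, with adjusted p from 0.086 to 0.185 in limma over probe sets. The name of 4 of them ends in _x_at, which marks probes that may also match other transcripts, and without these the difference was −0.17.

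*Vdac2*, whose product also restrains the cell death protein BAK, had values of −0.037, −0.071 and −0.065 in CTRL and 0.05, 0.071 and 0.037 in OE. The groups were narrow and apart, at −0.06 ± 0.02 for CTRL against 0.05 ± 0.02 for OE (SD, n = 3 each). The difference of 0.11 (SE 0.06, 95% interval −0.03 to 0.25), or 1.08-fold, did not pass limma (adjusted p = 0.21). It was called by one-way analysis of variance (adjusted p = 0.0259), which uses the gene's own spread alone, and *Vdac2* was the only member called by that test, with 14.1% of all genes called, 7.9% higher and 6.18% lower. *Vdac3*, the gene of the third isoform, had values of 0.073, −0.018 and 0.018 in CTRL and −0.11, 0.028 and −0.10 in OE, with groups that overlapped and OE 2 above CTRL 2 and CTRL 3. Its difference was −0.08 (SE 0.07, 95% interval −0.25 to 0.08, adjusted p = 0.4 from limma), and it was −0.13 without OE 2. After ribosomal centring *Vdac3* was called lower (log2 −0.30, adjusted p = 0.014).

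In 6 of 8 genes the groups did not overlap, with OE above CTRL in 3 and below it in 3. Of all genes 45.6% did not overlap, 22.0% with OE above and 23.6% with OE below. Of the 17 probe sets, 0 were called higher and 1 was called lower, that of *Mcu*, where 24.4% of all probe sets were called, 13.9% higher and 10.4% lower. At an unadjusted p under 0.05 in limma, 2 of the probe sets were higher and 4 lower, against 19.7% and 18.3% of all probe sets. With one-way analysis of variance 1 of the 17, that of *Vdac2*, was higher and none lower, where 11.3% of all probe sets were called, 6.8% higher and 4.49% lower. After ribosomal centring 12 of the 17 were called lower and none higher, where 49.9% of all probe sets were called, 7.45% higher and 42.4% lower.

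**Figure D2:**
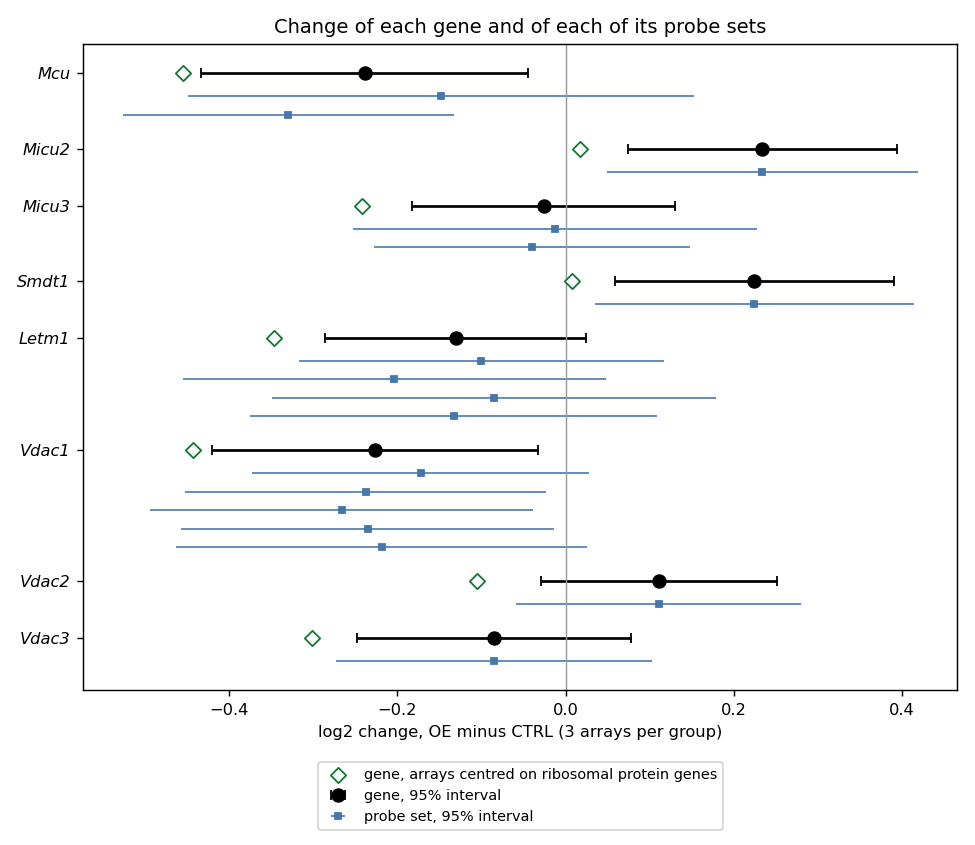
Log2 change in OE against CTRL with its 95% interval for each gene (black) and for each of its probe sets (blue squares), 3 arrays per group. Open diamonds give the gene after ribosomal centring, which moves *Vdac2* from 0.11 to −0.11, *Micu2* to 0.02 and *Mcu* to −0.45.

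The log ratio of a pair of genes within an array does not depend on a shift of the whole array, and 9 pairs were compared. The pairs shared genes, with *Mcu* in 5 and *Vdac1* in 3 of them. The groups did not overlap in 6 of the 9 pairs, where 46.5% of all pairs of genes on the array did not overlap. For *Micu2* over *Mcu*, *Smdt1* over *Mcu* and *Vdac2* over *Vdac1* this followed from the single genes, whose groups were apart in opposite directions. These ratios therefore add no separate support. Each of the 6 had p = 0.1 in the two-sided exact permutation test, the smallest that 3 arrays against 3 allow, and 0.15 when adjusted over the 9 pairs. *Micu2* over *Mcu*, a gatekeeper over the pore, had log2 values of −0.34, −0.12 and −0.25 in CTRL and 0.27, 0.11 and 0.33 in OE. This ratio was 1.39-fold higher in OE (log2 0.47, SE 0.09). *Smdt1* over *Mcu* was at −0.26, −0.15 and −0.23 in CTRL and 0.43, 0.051 and 0.28 in OE, 1.38-fold higher (log2 0.46, SE 0.11). *Micu3* over *Mcu* was 1.16-fold higher (log2 0.21, SE 0.06), while *Micu3* over *Micu2* was lower (log2 −0.26, SE 0.07).

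*Vdac2* over *Vdac1* was at −0.18, −0.14 and −0.13 in CTRL and 0.087, 0.15 and 0.33 in OE, 1.26-fold higher (log2 0.34, SE 0.07). CTRL arrays lay close together in this ratio, and the OE arrays spread with OE 3 at the top. *Vdac3* over *Vdac2* was lower in OE (log2 −0.20, SE 0.04). The groups overlapped for *Vdac3* over *Vdac1* (log2 0.14, SE 0.08, exact permutation p = 0.3), *Letm1* over *Mcu* (log2 0.11, SE 0.09, exact permutation p = 0.3) and *Mcu* over *Vdac1* (log2 −0.013, SE 0.09, exact permutation p = 0.9). Adjusted over the 9 pairs these were 0.337, 0.337 and 0.9. The ratio of *Mcu* to *Vdac1* ran from −0.16 in OE 1 to 0.10 in OE 2, a wider range than that of the CTRL arrays.

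**Figure D3:**
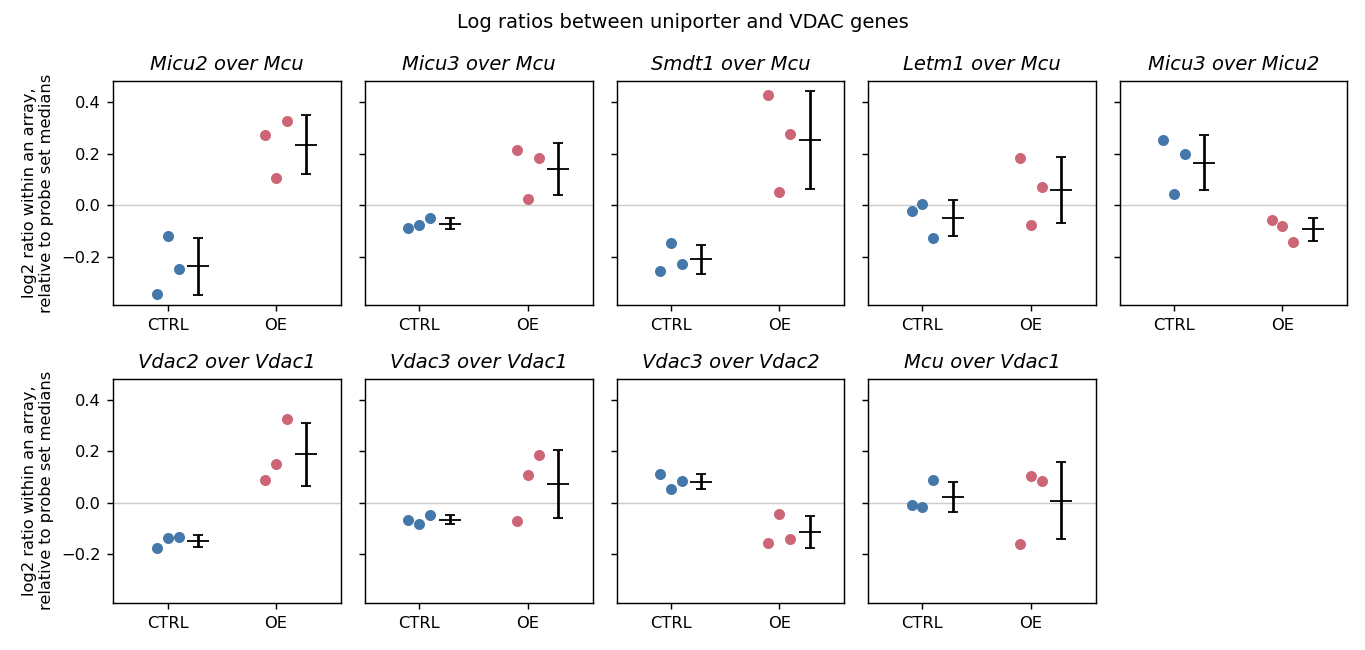
Log2 ratio of 9 pairs of genes within each array, relative to the probe set medians, for 3 CTRL arrays (blue) and 3 OE arrays (red), and beside the points the group's mean and SD. *Micu2*, *Smdt1* and *Vdac2* stand higher in OE relative to *Mcu* or *Vdac1*, and the ratio of *Mcu* to *Vdac1* overlaps between groups.

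Other genes of mitochondrial calcium transport were called in both directions. Of 17 measured genes of this list, 5 were lower and 1 higher, where 11.8% of all genes were lower and 14.9% higher. The median log2 change of the list was −0.03. *Mcur1*, whose product assists assembly of the uniporter, was 1.74-fold lower (log2 −0.80, SE 0.10, adjusted p = 0.00157 from limma), and *Tmem65*, which encodes an inner membrane protein linked to calcium efflux, was 1.78-fold lower (log2 −0.83, adjusted p = 0.00121). The uncoupling protein gene *Ucp3* (log2 −1.57), the prohibitin gene *Phb2* (log2 −0.32) and *Ghitm*, a proton-coupled calcium exchanger gene also known as Tmbim5 (log2 −0.25), were lower as well. *Slc25a24*, a calcium-regulated carrier of ATP-Mg and phosphate, was 1.74-fold higher (log2 0.79, adjusted p = 0.000773). *Ccdc90b*, a relative of *Mcur1* (log2 0.0077, adjusted p = 0.944), and *Letm2*, a relative of *Letm1* (log2 −0.013, adjusted p = 0.914), were not called. The count lower was 3 without OE 1 and without OE 3, when *Ghitm* and *Phb2* were no longer called, and the count higher was 2 without OE 2 (*Slc25a24* and *Efhd1*). Of all 18193 genes, 1243 were lower without OE 1, 1402 were lower without OE 3 and 2133 were higher without OE 2. After ribosomal centring 11 of the 17 were lower and 1 higher, where 50.5% of all genes were lower and 7.21% higher.

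Of 12 measured genes of matrix enzymes and carriers linked to calcium, 9 were lower and none was higher by limma, also at an unadjusted p under 0.05. With adjusted p, 11.8% of all genes were lower and 14.9% higher. The median log2 change of the list was −0.36. The dehydrogenase genes *Ogdh* (log2 −1.11), *Idh3a* (log2 −0.72) and *Idh3g* (log2 −0.38) encode parts of enzymes that matrix calcium activates. *Pdha1* (log2 −0.57) belongs to the complex that a calcium-dependent phosphatase switches on, and *Slc25a13* (log2 −0.82) is an aspartate-glutamate carrier with calcium-binding domains. *Pdk4* (log2 −1.07) is a kinase that opposes the phosphatase and does not itself sense calcium. The phosphatase gene *Pdp1* (log2 −0.08, adjusted p = 0.536) and *Idh3b* (log2 −0.13, adjusted p = 0.316) were not called. One-way analysis of variance called 5 of the 12 lower, where it called 6.18% of all genes lower, and *Pdk4* was not among the 5. Without OE 1 and without OE 3, *Pdhb*, *Dlst* and *Slc25a12* were no longer called. Of all genes 1243 were then lower without OE 1 and 1402 without OE 3. After ribosomal centring all 12 were called lower, where 50.5% of all genes were lower.

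Of 20 measured genes for partners of VDAC and contacts with the endoplasmic reticulum, 7 were lower and 4 higher. The shares of all genes were 11.8% lower and 14.9% higher, and the median of the list was −0.15. The calcium release channel gene *Ryr2* (log2 −0.55), the hexokinase gene *Hk2*, whose product docks on VDAC (log2 −0.48), and the tether genes *Mfn2* (log2 −0.46) and *Vapb* (log2 −0.43) were lower. *Tspo*, an outer membrane protein that is also abundant in macrophages, was 2.15-fold higher (log2 1.10, SE 0.14, adjusted p = 0.00178 from limma), and *Bak1*, the cell death effector that VDAC2 holds, was higher (log2 0.39, adjusted p = 0.00643, or log2 0.18 and adjusted p = 0.0829 after ribosomal centring). *Rmdn3* (log2 0.06) and *Pdzd8* (log2 −0.08), which encode further tethers, were not called. One-way analysis of variance called 3 of the 20 higher and 5 lower, where it called 7.9% of all genes higher and 6.18% lower. *Ryr2* was not called by that test. After ribosomal centring 1 gene of the list was higher and 13 were lower, against 7.21% and 50.5% of all genes.

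The adenine nucleotide carrier genes that work beside VDAC lay near 0, *Slc25a4* at a log2 difference of −0.045 (adjusted p = 0.608 from limma) and *Slc25a5* at −0.035 (adjusted p = 0.786). Of 9 genes of that list, none was higher by limma, also at an unadjusted p under 0.05, and 2 were lower, *Ppif*, which encodes the cyclophilin of the permeability transition (log2 −0.46, adjusted p = 0.0378), and *Atp5pb*, an ATP synthase gene (log2 −0.22, adjusted p = 0.0482). Among all genes 11.8% were lower and 14.9% higher. The count lower was 1 without OE 2 (*Ppif*), 0 without any other single array, 1 with arrays centred on their medians (*Ppif*) and 1 in one-way analysis of variance (*Slc25a4*). Of all 18193 genes, 2152 were lower with all arrays and 1243 to 1731 on leaving out 1 array. With arrays centred on their medians 1975 were lower, and in one-way analysis of variance 1125. After ribosomal centring the count lower in the list was 6, where 50.5% of all genes were lower. Of 11 genes of import and sorting in the outer membrane, where VDAC resides, 3 were higher and none was lower by limma, also at an unadjusted p under 0.05. With adjusted p, 14.9% of all genes were higher and 11.8% lower, and the median of the list was 0.04. The genes called higher were *Mtch1* (log2 0.54), *Tomm20* (log2 0.42) and *Tomm7* (log2 0.34), while *Tomm40* (log2 0.0038) and *Samm50*, which inserts VDAC into the membrane (log2 −0.031), were not called. After ribosomal centring 2 genes of that list were higher (*Tomm20* and *Mtch1*) and 3 lower (*Samm50*, *Mtx2* and *Mtch2*). The shares of all genes were then 7.21% higher and 50.5% lower. *Tomm7* was not called on that scale (log2 0.12, adjusted p = 0.161 from limma). Differences between these lists and the uniporter and VDAC genes were not tested.

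**Figure D4:**
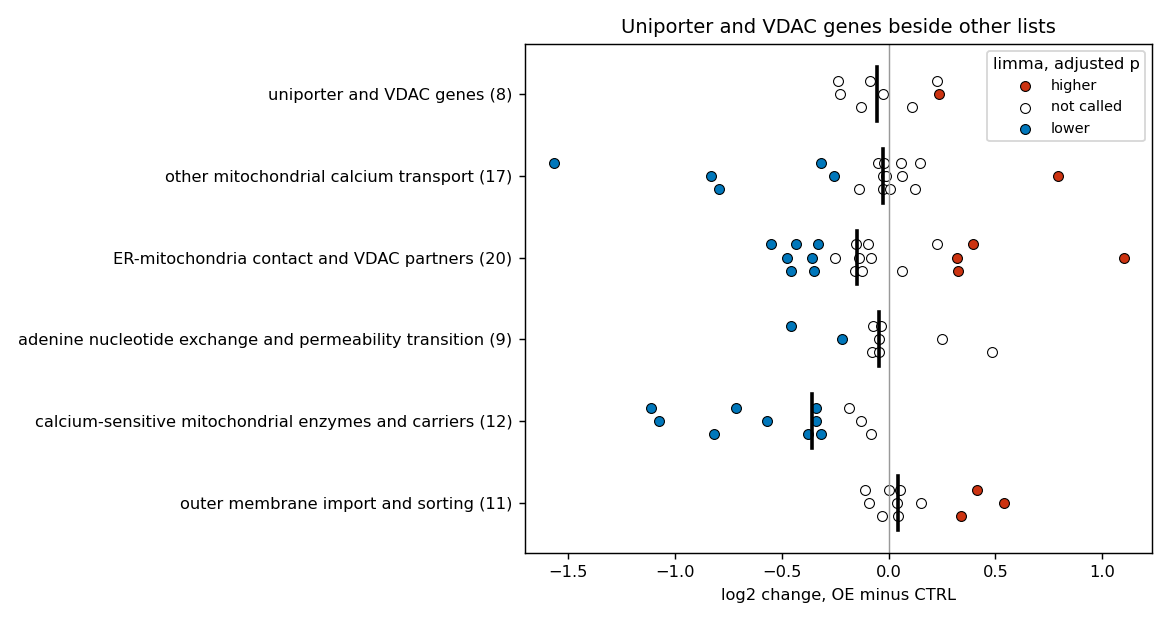
Log2 change in OE against CTRL of the 8 uniporter and VDAC genes and of the measured genes of 5 other lists, 3 arrays per group, with the number of genes in brackets. Red dots were called higher, blue dots lower and white dots were not called on the scale of the deposited values, where ribosomal centring leaves no uniporter or VDAC gene higher and 5 lower, and the black bar is the median of a list.

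In the same arrays 10 of 18 cardiomyocyte markers were lower and 4 higher, and 10 of 18 macrophage markers were higher and none lower by limma, also at an unadjusted p under 0.05. With adjusted p, 14.9% of all genes were higher and 11.8% lower. The mean log2 value over the macrophage list ran from −0.42 to −0.19 in CTRL and from 0.098 to 0.39 in OE, and that over the cardiomyocyte list from 0.09 to 0.14 in CTRL and from −0.17 to −0.14 in OE. Of 14 fibroblast markers 7 were higher and 2 lower, of 9 smooth muscle and pericyte markers 4 were higher and 3 lower, of 14 endothelial markers 7 were lower, and of 9 lymphocyte markers none was called by limma. At an unadjusted p under 0.05, 2 of the lymphocyte markers were lower, where 19.9% of all genes were lower. After ribosomal centring the counts were 2 higher and 13 lower for cardiomyocyte markers, 7 higher and 1 lower for macrophage markers, 6 higher and 2 lower for fibroblast markers, 3 higher and 4 lower for smooth muscle and pericyte markers, 12 lower for endothelial markers and 4 lower for lymphocyte markers. On that scale 7.21% of all genes were higher and 50.5% lower. The part of these cell types in the small differences of the uniporter and VDAC genes was not tested. Of 6 probe sets of *Nr2f2*, the gene of COUP-TFII, 1 was higher in OE (log2 3.49, SE 0.13), with each of its OE values above those of CTRL, and the other five, at −0.34 to −0.13, were not called.

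The pattern over the 6 arrays most like that of *Micu2*, by root mean square distance of log2 values over all genes, was that of *Slc66a1* (0.0196), then *Zfp383* (0.0238), *Spryd3* (0.0243), *Rnf4* (0.0252) and *Iars* (0.03), where the median distance of all genes was 0.193. For *Mcu* these were *1700094J05Rik* (0.031), *Golga4* (0.0314), *Speg* (0.0322), *Usp49* (0.0331) and *Slc16a13* (0.0344), with a median distance of 0.182. Within a distance of 0.05 lay 79 genes for *Micu2* and 43 for *Mcu*.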

How the data were processed

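Per the array methods and the labels, the authors summarized 6 Affymetrix mouse genome arrays by RMA within GeneSpring GX, quantile normalized them and subtracted the median across samples from every probe set. The deposited log2 values ran from −4.29 to 3.54, and the base of the logarithm is not given in the sources used here and was taken from RMA. Of 45101 probe sets, 932 naming several symbols, 9160 without a gene and 64 array controls were left out. Probe sets naming 1 symbol were averaged per gene, and symbols were updated through gene IDs to RefSeq (GRCm38.p6). Groups came from the sample titles. The labels do not say whether RNA was pooled, and the array methods name 3 mice of each genotype for the 6 arrays. The p-values measure the spread between these samples. Tests of OE against CTRL were two-sided and used limma 3.58.1 (lmFit, eBayes; R 4.3.3) with no covariate. The Benjamini-Hochberg adjustment ran over all genes or all probe sets, with a threshold of 0.05. One-way analysis of variance, which the methods name, was an alternative, because 3 arrays a group give an unsteady variance. SE is limma's moderated standard error, except for ratios, where it is the plain standard error of the difference. The number of arrays limits the precision. The lists and the genes studied were chosen with earlier results of these data known. Genes named were all members, from each pathway list up to 6 called genes of largest change and up to 2 uncalled genes of smallest change, and the 5 genes nearest to the members of largest rise and fall. Alternatives were array weights, robust eBayes, other choices of probe sets, other centring of arrays, the replicate number as a block, a limit of 1.2-fold and leaving out each array. The fits were tested on simulated data. No filter on expression level was possible. Python 3.11.15, pandas 2.3.3, scipy 1.17.1 and matplotlib 3.10.9 were used.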

Additional observations from a re-analysis of the deposited data

How the results depend on the processing

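The count of uniporter and VDAC genes called higher, 1 (*Micu2*), was 2 with array weights and with arrays centred on their medians (*Micu2* and *Smdt1* in each), 0 with arrays centred on ribosomal protein genes, with the probe set of largest variance, with the limit of 1.2-fold and with the replicate number as a block, and 0 on leaving out any array. It was 1 with one-way analysis of variance, where the gene was *Vdac2*. The count called lower, 0, was 5 with ribosomal centring and 1 with the probe set of largest variance (*Mcu*, through 1453166_at alone). Leaving out 1 array gave 0 to 1 (*Mcu*, without OE 2). Of probe sets of the group called higher, 0, one-way analysis of variance gave 1. Of those called lower, 1, it gave 0, ribosomal centring gave 12 (with 42.4% of all probe sets lower), and leaving out 1 array gave 0 (without CTRL 1, CTRL 2, OE 1 or OE 3) to 1. Over all genes 2709 were higher and 2152 lower, against 1437 and 1125 with one-way analysis of variance and 1312 and 9194 with ribosomal centring. With array weights 2784 were higher and 2225 lower, and with arrays centred on their medians 2868 and 1975. Leaving out 1 array gave 1830 to 2371 higher and 1243 to 1731 lower. *Micu3* ranged from −0.060 to 0.0079 on leaving out 1 array, with the sign turned without CTRL 3, and *Vdac2* turned sign with ribosomal centring (log2 −0.11). The ratio of *Micu3* to *Mcu* was 0.32 with the probe set of largest variance, and that of *Mcu* to *Vdac1* ranged from −0.060 to 0.073 on leaving out 1 array, with the sign turned without CTRL 3 (0.021) and without OE 1 (0.073). The causes were not tested. Arrays with the same replicate number did not deviate together (r from −0.12 to 0.070), so the numbers were not taken as pairs, and with the replicate block 2369 genes were higher and 1679 lower.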
